A study of Mus musculus with 12 samples.

Results

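Hemoglobin carries oxygen in red blood cells as a tetramer of alpha and beta chains, each holding a heme group. In the mouse the adult alpha chain is encoded by a pair of neighbouring genes, Hba-a1 and Hba-a2, and the adult beta chain by another pair, listed here as Hbb-b1 and Hbb-b2. Alas2 encodes the erythroid form of the enzyme that starts heme synthesis and lies on the X chromosome. Mature mammalian red cells have lost their nucleus but their youngest forms, the reticulocytes still found in blood, hold globin mRNA. Whether the globin reads came from blood or from other cells of these samples was not tested. The 5 genes Hba-a1, Hba-a2, Hbb-b1, Hbb-b2 and Alas2, of 37991 in the tables, were taken by their symbol, and the set was picked from a survey of these same libraries. Their levels and differences are therefore given as a description with an error and without a p-value.

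The values come from retinas of male mice aged 8 weeks, with 6 to 8 retinas pooled in each library and 3 libraries in each of 4 groups. F0 C57BL/6J (B6) and F0 Cast/EiJ (Cast) are the inbred parental strains. F1 B6xCast mice had a Cast/EiJ mother and F1 CastxB6 mice a C57BL/6J mother, and both F1 groups carry 1 copy of each autosome from each strain. Retinas were dissected in buffer, and no perfusion step is described in the sources used here. The authors mapped read pairs to transcripts of the matching strain (F0) or of both strains together (F1) and estimated expression with MMSEQ. MMSEQ divides reads that fit several genes or alleles between them and gives a normalized count equivalent, an expression level comparable to FPKM (fragments per kilobase and sequencing depth) and a posterior SD, its own measure of how well a gene's or allele's level is determined. Unique hits are the read pairs that fit 1 gene, and in F1 libraries 1 allele of it. They summed to between 8158534 and 12363291 per library, with the lowest group median, 8234902, in F0 Cast/EiJ. Each F1 allele column was scaled to about the total of an F0 library, so the F1 level of a gene is the mean of its 2 alleles below. Gnat1, the alpha subunit of the transducin of rod photoreceptors, averaged 4959 FPKM over the 12 libraries.

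The paralogs of each pair are near copies of each other, which limits what read pairs can tell apart. Hba-a1 (ENSMUSG00000069919) is at chr11:32183511-32184465 and Hba-a2 (ENSMUSG00000069917) at chr11:32196489-32197301 of NCBI37, both on the forward strand. Hbb-b1 (ENSMUSG00000052305) is at chr7:110975048-110976610 and Hbb-b2 (ENSMUSG00000073940) at chr7:110961038-110962510, both on the reverse strand. In the annotated coding sequences the alpha pair differs at 1 of 429 bases, written C381T, and the beta pair at 1 of 444 bases, C417T, with the first gene's base first and positions counted from 1 at the start codon. The 41 coding bases around each difference are shown because these are the letters that tell the coding parts of the paralogs apart, with the differing base in capitals, 5′ to 3′ along the mRNA.

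Hba-a1, chr11:32184323-32184363: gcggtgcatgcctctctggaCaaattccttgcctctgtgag
Hba-a2, chr11:32197140-32197180: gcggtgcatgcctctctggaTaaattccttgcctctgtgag
Hbb-b1, chr7:110975186-110975226: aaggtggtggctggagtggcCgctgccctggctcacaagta
Hbb-b2, chr7:110961177-110961217: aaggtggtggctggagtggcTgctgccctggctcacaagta

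A stretch as long as a single read was often the same in both paralogs. Of the 454 stretches of that length in the main Hba-a2 transcript, 337 (74.2%) also occurred in that of Hba-a1, and they were 56.3% of the 599 stretches of Hba-a1. For the beta pair, 330 stretches were shared, 48.7% of the 678 in Hbb-b1 and 54.7% of the 603 in Hbb-b2. The transcripts differed mainly outside the coding part. These counts come from the reference sequence of C57BL/6J, and positions where Cast/EiJ differs were not examined.

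The promoters of the alpha pair are also copies. In the 250 bases before the RefSeq start sites (GRCm38.p6), Hba-a1 and Hba-a2 matched at 247 of 247 aligned bases, whereas those of the beta pair, which RefSeq names Hbb-bs and Hbb-bt at these places, matched at 127 of 249 (51.0%). The bases that precede the annotated gene are shown for a gene of each pair, Hba-a2 for the alpha pair and Hbb-b2 for the beta gene without unique hits in 1 strain, located in NCBI37 by exact match. Capitals mark GATAA (bound by GATA factors), CACCC (bound by Klf factors), CCAAT and TATAA on either strand.

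Hba-a2, chr11:32196242-32196488, forward strand: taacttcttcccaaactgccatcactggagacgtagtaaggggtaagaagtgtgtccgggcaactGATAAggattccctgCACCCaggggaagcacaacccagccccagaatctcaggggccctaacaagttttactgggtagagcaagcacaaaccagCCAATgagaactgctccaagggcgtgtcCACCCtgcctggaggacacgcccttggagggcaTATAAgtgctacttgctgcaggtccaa
Hbb-b2, chr7:110962511-110962687, reverse strand: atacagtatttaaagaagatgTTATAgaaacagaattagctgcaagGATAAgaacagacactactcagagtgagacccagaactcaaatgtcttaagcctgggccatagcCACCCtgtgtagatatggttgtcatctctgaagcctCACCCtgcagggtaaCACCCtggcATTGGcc

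All 5 genes held 1 GATAA in their 250 bases, a motif present in 23.0% of 27025 promoters of that length. CACCC occurred 2 times before each alpha gene, 1 time before Hbb-b1 and 3 times before Hbb-b2 and Alas2, and was in 51.3% of all promoters. CCAAT occurred 1 time before each alpha gene and Hbb-b1, 3 times before Hbb-b2 and not before Alas2 (34.5% of all promoters). TATAA was found before each of the 5 genes (23.5% of all promoters). A match of letters is no measurement of binding.

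Globin transcripts were detected in every retina library, and the F0 strains differed in which paralog their reads were assigned to. Hba-a1, an alpha gene, gave 225, 237 and 282 count equivalents in F0 C57BL/6J and 360, 273 and 455 in F0 Cast/EiJ. Hba-a2, its neighbour, gave 239, 284 and 406 count equivalents in F0 C57BL/6J but 14.7, 3.14 and 13.0 in F0 Cast/EiJ. The groups did not overlap for Hba-a2, and for Hba-a1 the lowest Cast/EiJ library lay between the C57BL/6J libraries. On the log2 scale (count equivalents plus 1) Cast/EiJ differed from C57BL/6J by 0.52 ± 0.18 (SE, n = 3 per group) for Hba-a1 and by -4.97 ± 0.47 for Hba-a2. The unique hits, which fit no other gene among the transcripts they were mapped to, had the same split. Whether Cast/EiJ read pairs of the alpha genes were assigned to the other paralog was not tested. Hba-a1 had 107, 141 and 143 unique hits in C57BL/6J and 131, 97 and 172 in Cast/EiJ, while Hba-a2 had 75, 93 and 113 against 4, 1 and 5. The share of Hba-a2 in the alpha total was 55.0% ± 3.78 (SD, n = 3) in C57BL/6J and 2.61% ± 1.40 in Cast/EiJ.

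The beta genes were lower in F0 Cast/EiJ, and Hbb-b2 had no unique hit there. Hbb-b1, the main beta gene in these retinas, gave 182, 239 and 305 count equivalents in F0 C57BL/6J and 118, 70.6 and 148 in F0 Cast/EiJ, a log2 difference of -1.13 ± 0.28 (SE, n = 3 per group). Its unique hits were 99, 132 and 146 against 50, 28 and 64, so the groups did not overlap in either measure. Hbb-b2 gave 30.3, 25.3 and 42.2 count equivalents in C57BL/6J from 14, 14 and 20 unique hits. In F0 Cast/EiJ it had 0 unique hits in each of the 3 libraries, its count equivalents were below 1, and its posterior SD was between 9.94 and 10.28 on the natural log scale. Set against a floor of 3 hits over the Cast/EiJ group, which covers counting error only, Hbb-b2 hits were at least 12.7-fold fewer in Cast/EiJ relative to all unique hits. In the F1 libraries 182 unique hits were assigned to the Cast allele of Hbb-b2. The part of read assignment between the paralogs in the count of 0 was not tested. Hbb-b2 made up 12.0% ± 2.35 (SD, n = 3) of the beta total in C57BL/6J.

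**Figure D1:**
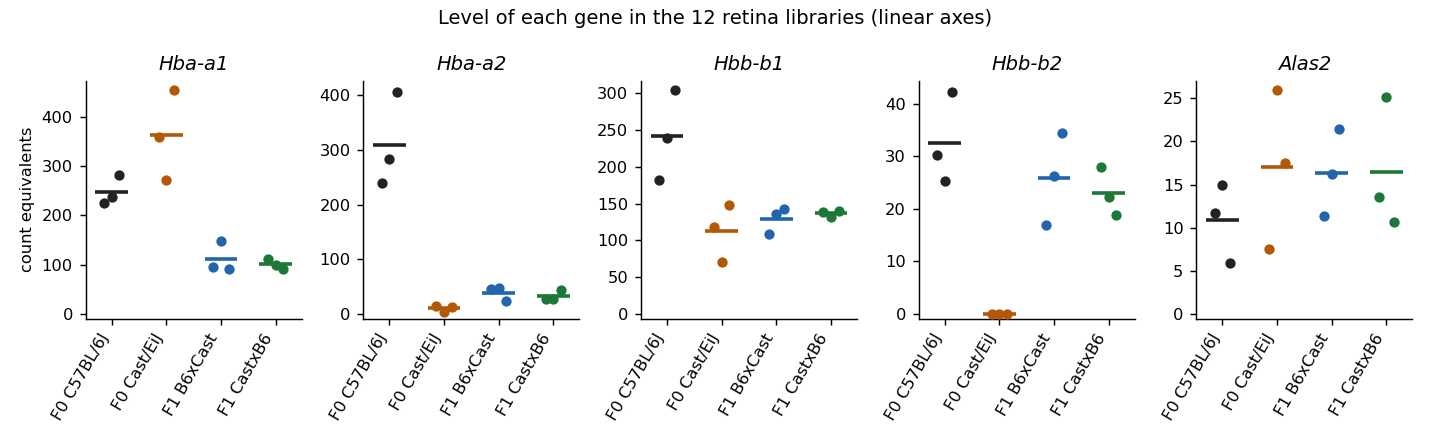
Count equivalents of the 5 genes (vertical axes, linear and separate for each gene) in the 12 retina libraries by group, with the mean of both alleles for F1. Each point is a library and each bar the mean of 3. Hba-a2 and Hbb-b2 stand near the axis in F0 Cast/EiJ, where Hba-a2 reached at most 14.7, and the F1 libraries of Hba-a1 lie below those of both F0 strains.

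Summed over each pair, alpha-globin gave 464, 521 and 688 count equivalents in F0 C57BL/6J and 375, 276 and 468 in F0 Cast/EiJ. The beta sum was 212, 264 and 347 in F0 C57BL/6J and 118, 70.6 and 148 in F0 Cast/EiJ. The strains overlapped in the alpha sum, by a single library on each side, and not in the beta sum. Accordingly the ratio of alpha to beta was 2.05 ± 0.121 (SD, n = 3) in C57BL/6J and 3.42 ± 0.429 in Cast/EiJ, with ranges of 1.97 to 2.19 and 3.16 to 3.91. The beta sum of Cast/EiJ rests on Hbb-b1, since Hbb-b2 had no unique hit there. How far read assignment lowered this sum and raised the ratio was not tested. Within each strain both sums put the libraries in the same order. Replicate 1 was lowest and replicate 3 highest in C57BL/6J, and replicate 2 was lowest and replicate 3 highest in Cast/EiJ. In a bulk sample, fewer red cells and less globin RNA per cell cannot be told apart.

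**Figure D2:**
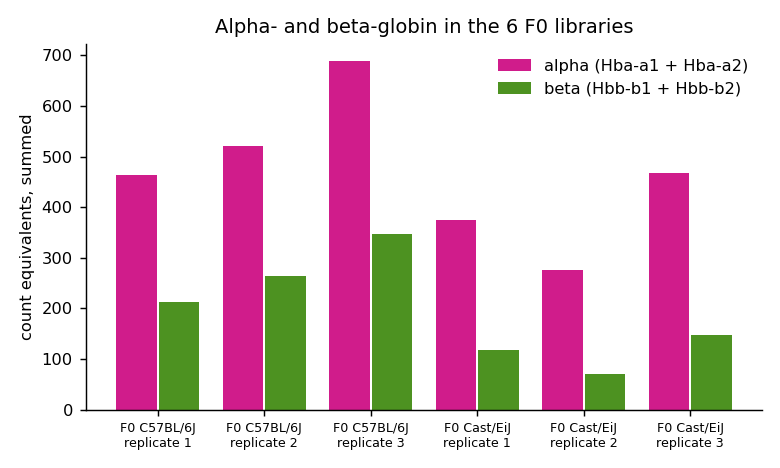
Summed count equivalents (vertical axis, from 0) of the alpha genes and of the beta genes in each of the 6 F0 libraries. The alpha bar is higher than the beta bar in all 6 libraries, the beta bars of Cast/EiJ (70.6 to 148) lie below those of C57BL/6J (212 to 347), and the library order is the same for both chains within a strain.

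Per transcript length, the order of the genes changed with the strain. In F0 C57BL/6J the levels were 37.7 ± 11.2 FPKM (SD, n = 3) for Hba-a2, 30.0 ± 4.64 for Hba-a1, 20.6 ± 3.93 for Hbb-b1, 2.92 ± 0.824 for Hbb-b2 and 0.963 ± 0.335 for Alas2. The ranges of Hba-a2 and Hba-a1 overlapped, and those of the other neighbours in this order did not. In F0 Cast/EiJ the levels were 36.0 ± 7.86 FPKM for Hba-a1, 9.57 ± 3.46 for Hbb-b1, 1.37 ± 0.497 for Alas2 and 1.30 ± 0.794 for Hba-a2, and Hbb-b2 was without unique hits. Only Alas2 and Hba-a2 overlapped there among neighbours.

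Alas2, the first enzyme of heme synthesis in erythroid cells, was detected at a low level in all 12 libraries. Its count equivalents were 11.7, 15.0 and 5.88 in F0 C57BL/6J and 7.51, 26.0 and 17.5 in F0 Cast/EiJ, with overlapping groups and a log2 difference of 0.53 ± 0.50 (SE, n = 3 per group). Its unique hits were 18, 13 and 13 against 11, 16 and 13. By count equivalents, the C57BL/6J library with the highest alpha and beta sums had the lowest Alas2 value of its group, while by unique hits relative to depth it did not. The Cast/EiJ library with the lowest globin sums had the highest Alas2 value of its group by both measures. The gene (ENSMUSG00000025270, chrX:146981918-147005181, forward strand) lies wholly inside the annotated extent of Apex2, a DNA repair nuclease gene on the reverse strand, and 311 of its 2403 exonic bases (12.9%) are also exonic in Apex2. Apex2 had between 262 and 413 count equivalents per library. The sequencing did not keep the strand, so reads from these shared bases cannot be told apart.

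The F1 crosses show whether an allele keeps its level when both strains' alleles sit in 1 cell, and both beta genes had hits that fit 1 allele. Hbb-b1 was near balance. Its allele-specific unique hits in the 3 libraries of F1 B6xCast were 83, 126 and 79 for the B6 allele and 75, 117 and 91 for the Cast allele. In F1 CastxB6 they were 109, 107 and 107 for the B6 allele and 115, 105 and 100 for the Cast allele. The Cast allele thus took 49.7% ± 3.32 (SD, n = 3) and 49.7% ± 1.52 of the allele-specific hits in the 2 crosses, and the log2 difference of the count equivalents between alleles was 0.02 ± 0.09 (SE, n = 6 libraries). In F0 the same gene was lower in Cast/EiJ by -1.13 on this scale, and no test was made of these values since the genes were chosen with them in view.

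Hbb-b2 had more allele-specific hits from the Cast allele in all 6 F1 libraries, although the F0 Cast/EiJ libraries gave none. In F1 B6xCast the Cast allele had 24, 32 and 35 unique hits and the B6 allele 4, 19 and 13. In F1 CastxB6 the Cast allele had 40, 30 and 21 unique hits and the B6 allele 12, 11 and 10. The Cast share was 73.8% ± 11.5 (SD, n = 3) in F1 B6xCast and 72.6% ± 4.62 in F1 CastxB6, and over all 6 libraries 182 hits were assigned to the Cast allele and 69 to the B6 allele. The share ranged from 62.7% in replicate 2 to 85.7% in replicate 1 of F1 B6xCast. The log2 difference of the count equivalents, Cast minus B6 allele, was 1.22 ± 0.26 (SE, n = 6 libraries). Whether read pairs of Hbb-b1 and Hbb-b2 were exchanged between the paralogs or between the strain-specific transcripts was not tested.

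For the alpha genes, no allele estimate could be read. In the authors' table both Hba-a1 and Hba-a2 are marked as without a known exonic polymorphism between the strains, whereas both beta genes are marked as polymorphic. In the 6 F1 libraries, the hits that fit 1 allele numbered 0 for both alpha genes. The posterior SD of Hba-a1 was between 0.07 and 0.09 (natural log) in the F0 libraries and between 1.33 and 3.71 in the F1 alleles. That of Hba-a2 was between 0.06 and 0.09 in F0 C57BL/6J, between 0.51 and 1.12 in F0 Cast/EiJ and between 1.56 and 4.66 in the F1 alleles. For Hbb-b1 it stayed between 0.09 and 0.12 in the F1 alleles, and for Hbb-b2 between 0.16 and 0.52.

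The split of Hba-a1 between the alleles changed direction from library to library. The B6 allele was given 121, 277 and 54.7 count equivalents in F1 B6xCast and the Cast allele 67.8, 18.9 and 127. In F1 CastxB6 the B6 allele was given 84.9, 125 and 46.0 and the Cast allele 140, 73.3 and 137, so the B6 allele was ahead in 3 of the 6 libraries. Hba-a2 ran from 2.46 to 41.5 count equivalents for the B6 allele and from 12.4 to 88.5 for the Cast allele, and the higher allele also differed between libraries of the same cross.

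**Figure D3:**
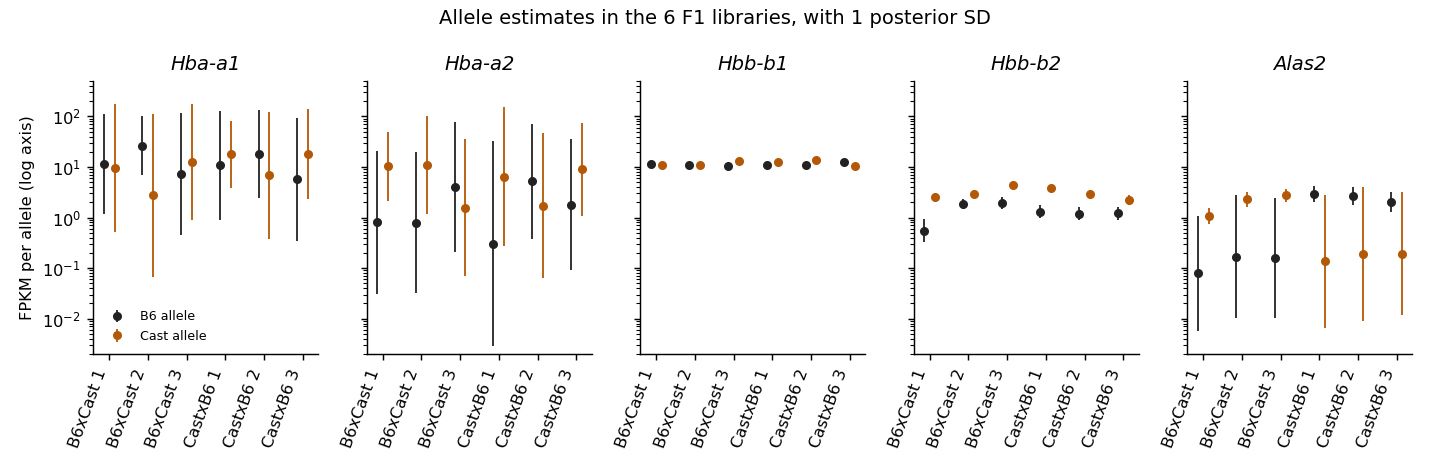
FPKM of the B6 and the Cast allele (vertical axis, log) in each of the 6 F1 libraries, with bars of 1 posterior SD on either side. The bars of the alpha genes, with posterior SDs of 1.33 to 4.66 on the natural log scale, overlap between alleles, those of Hbb-b1 are about as small as its points, the Cast allele of Hbb-b2 lies above the B6 allele in 6 of 6 libraries, and Alas2 changes its higher allele with the cross.

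The F1 values of the alpha genes stood below those of F0, as did those of most genes without a polymorphism, so they cannot be read as a level. F1 libraries were sequenced on a lane more than F0 libraries, so lane and generation cannot be told apart. Hba-a1 averaged 305 count equivalents over the 6 F0 libraries and 106 over the 6 F1 libraries as the mean of its alleles, a log2 ratio of -1.53. For Hba-a2 the averages were 160 and 35.4, a log2 ratio of -2.18. The beta sum moved less, from 193 to 157, a log2 ratio of -0.30. Among the 402 genes with at least 50 count equivalents in F0 that are marked as non-polymorphic, the median log2 ratio of F1 to F0 was -1.51, with quartiles of -3.62 and -0.53, and 61.2% were below -1. Among 11297 polymorphic genes the median was -0.01 and 0.912% were below -1. The lower F1 values of the alpha genes are thus within the range of genes whose reads fit both alleles, and no comparison of alpha-globin between F1 and F0 is drawn. The ratio of alpha to beta in F1, 0.986 ± 0.303 (SD, n = 3) in F1 B6xCast and 0.836 ± 0.0139 in F1 CastxB6, carries the same limit.

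**Figure D4:**
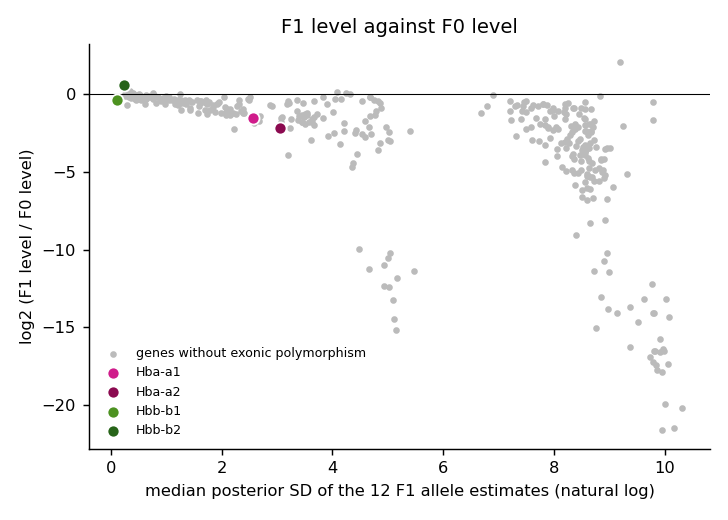
Log2 ratio of the mean F1 level to the mean F0 level (vertical axis) against the median posterior SD of the F1 allele estimates (horizontal axis, natural log) for 402 non-polymorphic genes (grey) and the 4 hemoglobin genes. Hba-a1 (-1.53) and Hba-a2 (-2.18) lie among the grey points below 0, and the polymorphic beta genes lie at the left edge with posterior SDs of 0.11 and 0.23.

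For the beta genes the mean of the alleles was set beside F0. Hbb-b1 averaged 129 ± 17.7 count equivalents (SD, n = 3) in F1 B6xCast and 137 ± 4.07 in F1 CastxB6, between the means of F0 Cast/EiJ (112 ± 39.0) and F0 C57BL/6J (242 ± 61.6). Its F1 range overlapped that of F0 Cast/EiJ and not that of F0 C57BL/6J. Hbb-b2 averaged 25.9 ± 8.77 and 23.0 ± 4.60 in the crosses, overlapping F0 C57BL/6J (32.6 ± 8.68). The order of the groups for the beta sum of count equivalents was F0 C57BL/6J at 275 ± 68.0, F1 CastxB6 at 160 ± 6.23, F1 B6xCast at 155 ± 26.2 and F0 Cast/EiJ at 112 ± 39.0. The ranges of neighbours overlapped except between F0 C57BL/6J and F1 CastxB6. Unique hits relative to depth gave another order, with both beta genes higher in every F1 library than in every F0 library. Hbb-b1 had 158 to 243 unique hits per F1 library and at most 146 in F0. Hbb-b2 had 28 to 52 and at most 20. In F1 these hits and the depth count allele-specific read pairs only, so they are not on the F0 scale. Why the measures differed was not tested.

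Between the crosses, which differ in the strain of the mother, neither beta gene differed by more than its standard error. The log2 difference of the summed alleles, F1 CastxB6 minus F1 B6xCast, was 0.09 ± 0.11 for Hbb-b1 and -0.13 ± 0.28 for Hbb-b2 (SE, n = 3 per group). The values of Hba-a1, -0.10 ± 0.20, and Hba-a2, -0.20 ± 0.32, rest on F1 values that cannot be read as a level. Their SE leaves out the posterior SD, and no comparison is drawn from them. Alas2 also had a similar total, -0.04 ± 0.36, but not a similar source. Its allele-specific unique hits in F1 B6xCast were 8, 11 and 13 for the Cast allele and 0 in every library for the B6 allele. In F1 CastxB6 they were 14, 17 and 11 for the B6 allele and 0 in every library for the Cast allele. All hits thus came from the X chromosome of the mother, the only X of a male. A count of 0 in 32 hits allows a paternal share of up to 9.38%, and 0 in 42 hits up to 7.14%. The paternal allele still received between 0.538 and 1.30 count equivalents, with posterior SDs of 2.63 to 3.04, from reads that fit both alleles.

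Other erythroid genes were compared by lists of genes of heme synthesis, of red cells and of their transcription factors. Of 40 such genes in the tables, 22 passed the filter in F0 (at least 10 count equivalents in at least 3 libraries) and limma with Benjamini-Hochberg adjustment over all genes called 4 higher and 5 lower in Cast/EiJ at an adjusted p under 0.05, 2 of the higher ones (Tspo2 and Epor) having passed the filter only through Cast/EiJ, while over all genes it called 17.0% and 16.3% of 15043. With TMM factors the calls over all genes shifted from 2560 higher and 2459 lower to 1754 higher and 3001 lower. Some genes of these lists were at or near 0 in the same libraries and others were not. Of 21 red cell genes measured, 3 had no unique hit in any of the 12 libraries, among them Rhag and Kel, which encode red cell surface proteins. Slc4a1, the red cell anion exchanger, had 4 in total, and Gata1, a master regulator of red cell development, had 5. On the transcription factor list Klf1 had from 0 to 6 and Zfpm1 from 63 to 238 unique hits per F0 library.

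Heme synthesis genes, which all cells use, had moderate levels and calls in both directions. Of 12 tested besides Alas2, limma called 1 higher and 4 lower in F0 Cast/EiJ, beside 17.0% higher and 16.3% lower of all genes, and edgeR called 4. The list's median log2 difference was -0.03, against 0.03 over all genes tested. Slc25a37, the mitochondrial iron importer of erythroid cells, was lowest relative to C57BL/6J, at 601 ± 71.7 (SD, n = 3) against 211 ± 43.7 count equivalents, a log2 difference of -1.52 ± 0.16 (limma adjusted p = 0.00016). Uros fell by 1.08 ± 0.20 (limma adjusted p = 0.0038), Cpox by 0.53 ± 0.10 (limma adjusted p = 0.0034) and Abcb10, a mitochondrial transporter, by 0.34 ± 0.08 (limma adjusted p = 0.014). Alas1, the form of the first enzyme used outside red cells, had a log2 difference of 0.26 ± 0.09 (limma adjusted p = 0.049), a call that was lost without any 1 of the 6 libraries (adjusted p from 0.065 to 0.16). Urod at 30.2, Ppox at 15.2, Alas1 at 12.5 and Slc25a39 at 12.0 FPKM had the highest levels of the list, all above the 1.19 FPKM of Alas2.

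Of the red cell list, 8 genes were tested in F0, and limma called 2 higher, Xk and Tspo2, and 0 lower. Over all genes the shares were 17.0% and 16.3%, and edgeR called 3 of the 8. Tspo2, a translocator protein of erythroid cells, had 0, 1 and 0 unique hits in F0 C57BL/6J and 51, 36 and 43 in F0 Cast/EiJ. Pooled over the libraries, the ratio per unique hit sequenced was 163. Its 95% exact interval of 28.8 to 6498 covers counting error only and not the spread between libraries. Xk, a membrane transport protein of red cells on the X chromosome, rose by 0.72 ± 0.15 on the log2 scale (limma adjusted p = 0.0064). Prdx2, an abundant peroxidase of red cells, at 66.8 FPKM, Bnip3l at 63.3, Bpgm at 19.2 and Ank1 at 11.1 had the highest levels of the list, at log2 differences of -0.00, 0.05, -0.24 and 0.00. Of the transcription factor list, Zfpm1, a cofactor of GATA factors, fell by 0.87 ± 0.16 (limma adjusted p = 0.0036), and Epor, the erythropoietin receptor, had 9, 6 and 6 unique hits in C57BL/6J and 19, 13 and 22 in Cast/EiJ. Tspo2 and Epor passed the filter only through the Cast/EiJ libraries, so that being tested already required a difference, and their calls are no evidence of one.

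**Figure D5:**
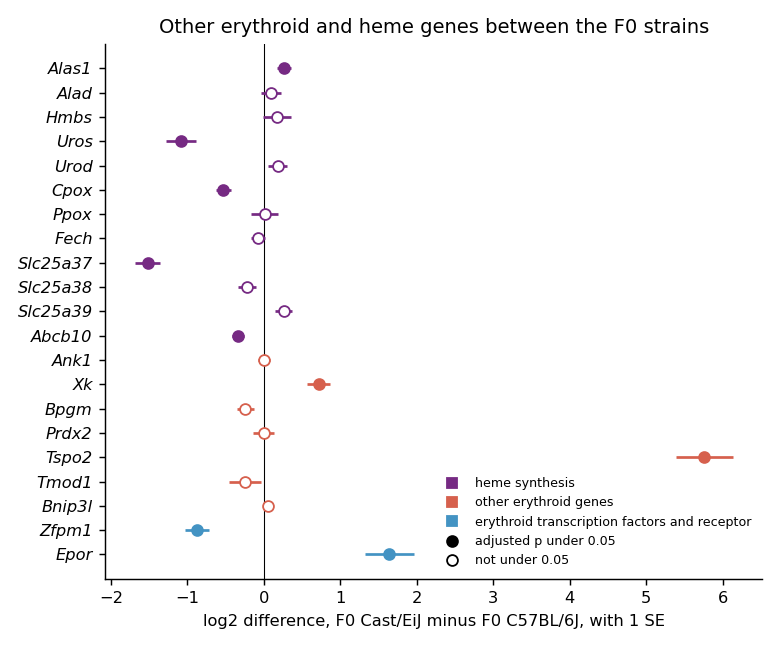
Log2 difference of count equivalents, F0 Cast/EiJ minus F0 C57BL/6J (horizontal axis), with 1 SE for 21 of the 22 tested genes of heme synthesis, red cells and their transcription factors, 1 uncalled gene not being shown. Filled points had a limma adjusted p under 0.05 and open points did not. Tspo2, which like Epor passed the filter only through Cast/EiJ, stands at 5.76 and Slc25a37 at -1.52, and 12 of the 21 points are open.

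Between the F1 alleles, 5 of 21 tested genes of the same lists were called higher and 7 lower on the Cast allele, against 23.1% and 23.1% of all 13414 genes tested. Tspo2 came from the Cast allele, with 65 to 122 unique hits per library against 0 for the B6 allele in all 6. It passed the filter of allele-specific hits through the Cast allele alone, so its difference is a description only. The log2 difference was -1.35 ± 0.09 for Slc25a37 (limma adjusted p = 9.7e-08), -0.60 ± 0.10 for Uros (limma adjusted p = 0.00043), -0.98 ± 0.11 for Zfpm1 (limma adjusted p = 1.3e-05) and -0.79 ± 0.09 for Prdx2 (limma adjusted p = 1.2e-05). Abcb10 (-0.35) and Cpox (-0.26) were lower as well, and so was Slc25a38, at -0.27 ± 0.08 (limma adjusted p = 0.016, between 0.053 and 0.083 without replicate 3 of F1 B6xCast or without replicate 1 or 3 of F1 CastxB6). Fech, the last enzyme of heme synthesis (0.37), Gypc (1.37) and Alad, at 0.25 ± 0.07, were higher. The call of Alad (limma adjusted p = 0.015) was lost without replicate 1 (0.067) or 2 (0.055) of F1 CastxB6, and Gypc has 2 rows under this symbol in the tables, so its reads may be divided between them. Between the crosses limma called 0 of 24 tested genes, against 0.135% higher and 0.161% lower of all 15542, with 1 at an unadjusted p under 0.05 and 0 by edgeR.

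Embryonic and other alpha- or beta-like globins were at or near 0. None of the 7 in the tables passed the filter, and their summed level was at most 1.98 count equivalents in any library. Hba-ps4, an alpha pseudogene, had 20 unique hits over the 12 libraries, Hbq1a 4, Hba-x and Hbb-y 1 each, and Hbq1b, Hbb-bh1 and Hbb-bh2 none. Of the globins of other tissues, Cygb, cytoglobin, had 35.1 FPKM, and Ngb, neuroglobin, 0.818. Neither of these 2 was called between the F0 strains (limma adjusted p of 0.31 and 0.19), beside 17.0% higher and 16.3% lower of all genes. At an unadjusted p under 0.05 there were 0, and edgeR called 0. Mb, myoglobin, at 0.227 FPKM, did not pass the filter.

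Genes that clear hemoglobin and heme were compared in the same way. Of the 8 such genes, 5 were tested between the F0 strains, and limma called 0, beside 17.0% higher and 16.3% lower of all genes. At an unadjusted p under 0.05 there were 0, and edgeR called 0. So few genes give no result about the list. Lrp1, a receptor that takes up heme bound to hemopexin among other ligands, at 16.6 FPKM, Hmox2, the constitutive heme oxygenase, at 16.1, Blvra at 5.81 and Blvrb at 2.70 had the highest levels, and Hmox1, the inducible heme oxygenase, had 1.04. Between the F1 alleles 4 were tested and 2 called higher on the Cast allele, beside 23.1% higher and 23.1% lower of all genes tested. These were Blvrb (0.84 ± 0.16, limma adjusted p = 0.001) and Blvra (0.31 ± 0.12, limma adjusted p = 0.047). The call of Blvra was lost without any 1 of the 6 libraries (adjusted p from 0.050 to 0.16).

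Markers of other blood and tissue cells were measured beside the globins. Leukocyte markers summed to between 19.4 and 25.0 count equivalents in F0 C57BL/6J and between 14.2 and 28.1 in F0 Cast/EiJ over 10 genes, of which S100a9, Ms4a1 and Cd3e had no unique hit. Lyz2, Cd79a, Ngp and Ptprc were the highest of them, at 0.335, 0.0974, 0.0688 and 0.0477 FPKM. Platelet markers summed to between 114 and 161 in C57BL/6J and between 64.3 and 68.3 in Cast/EiJ, with Gp1ba and Itga2b highest per length (1.12 and 1.26 FPKM), and Pf4 had 1 unique hit in the 12 libraries. Gp1ba was called lower in Cast/EiJ (-1.36 ± 0.17, limma adjusted p = 0.00052), Itga2b was not (0.15), and Gp5 and Gp9 were at 0.0947 and 0.0695 FPKM.

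Of 10 tested markers of blood vessels, limma called 3 lower and 1 higher in F0 Cast/EiJ, beside 16.3% lower and 17.0% higher of all genes, and edgeR called 6. Their median log2 difference was -0.38, against 0.03 over all genes tested. Rgs5, a pericyte gene (-1.62 ± 0.10, limma adjusted p = 6.5e-06), Pecam1 (-0.98 ± 0.18, limma adjusted p = 0.0033) and Cdh5 (-0.96 ± 0.22, limma adjusted p = 0.012) were lower, the last one not without replicate 2 of C57BL/6J (adjusted p = 0.051), while Kdr was higher (0.65 ± 0.13, limma adjusted p = 0.0063) and the other 6 were not called. Of these Cldn5 (-0.64), Pdgfrb (-0.40), Tek (-0.35) and Vwf (-0.27) had lower values in Cast/EiJ, and Flt1 (0.05) and Esam (0.00) were near 0. The summed level ranged from 4327 to 5777 count equivalents in C57BL/6J and from 5050 to 6218 in Cast/EiJ, with Kdr and Flt1 the highest in FPKM (23.0 and 12.4). Of 7 tested genes of the pigment epithelium and choroid, 3 were called lower in Cast/EiJ, beside the 16.3% over all genes, namely Ttr (-1.77), Rgr (-1.52) and Rdh5 (-0.90), the last of which was lost without replicate 1 (0.053) or 2 (0.061) of C57BL/6J, while Dct (-0.31) was not called. Of 6 rod genes, 1 was called, Sag (1.18), and Gnat1 (-0.17) and Pde6b (0.18) were not. The part of these cells in the lower beta-globin of Cast/EiJ was not tested.

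Finally, the genes whose pattern was most like the summed hemoglobin genes were looked for among the 12034 genes that averaged 50 count equivalents or more. Over the 12 libraries Pearson's r was 0.941 for Ppp1cc, 0.912 for Gm14738, 0.885 for Arf3 and 0.883 for Rps4y2. These points share the low F1 values of the alpha genes, and Rps4y2 is itself marked as non-polymorphic. After the mean of its group was taken from each library, r was 0.964 for Alkbh8, 0.938 for Ddx50, 0.937 for Dera, 0.937 for Bex4 and 0.933 for Tceal3. None of these genes is on a list above. Among the listed genes the same r within groups ran from -0.87 for Uros to 0.90 for Rgs5. With 12 points drawn from 12034 genes these values describe the libraries only.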

How the data were processed

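Retinal mRNA of 12 pools was sequenced. Per the study's methods the authors trimmed reads with Trim Galore 0.2.6, aligned them with Bowtie 0.12.9 to strain-specific (F0) or hybrid (F1) Ensembl transcripts on NCBI37 and ran MMSEQ. The deposited count equivalents are a signal the authors normalized between columns. The deposited natural log of expression was exponentiated to FPKM, and its posterior SD was used as deposited. Unique hits are deposited counts, not normalized. From the authors' table of model comparisons only the polymorphism flag was used, its posterior probabilities and Bayes factors were not. Its 36 columns of expression and SD of these same libraries were not used either. The sequencing was not strand-specific.

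Members and lists were chosen with earlier results of these data known. Log2 of count equivalents plus 1 was fitted with limma 3.58.1 (R 4.3.3) over all genes reaching 10 count equivalents in 3 or more libraries, for alleles over autosomal genes averaging at least 10 allele-specific hits with the library as a block (consensus correlation 0.108). P-values are two-sided, Benjamini-Hochberg adjusted over all genes, and called under 0.05. On simulated 2-fold changes in 200 genes the fits called 83.5% (F0), 86.5% (crosses) and 95.0% (alleles). The changed genes were drawn from those with a mean above 5 on this log2 scale, so these shares do not cover lower genes. Alternatives were edgeR 4.0.16 and DESeq2 1.42.0 on unique hits, a pseudocount of 0.1, TMM factors, no filter, a replicate block, libraries left out in turn and, added after seeing the data, autosomal genes alone. Some named or listed genes are not reported here. Named were otherwise the 5 members, the 4 genes of each list with the highest FPKM, every erythroid, heme, globin or clearance gene called, and the 5 genes most like the hemoglobin sum in 2 ways. For likeness the F1 alleles were averaged, not summed, since each allele column has an F0 total. Replicates are separate pools of retinas. Intervals at 95% and floors of 3 hits cover counting error only.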

Additional observations from a re-analysis of the deposited data

Results flagged for a closer look

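Hbb-b2 moved one way between the F0 strains and the other way between the F1 alleles, with every library on its side. The log2 difference, Cast minus B6, was -5.04 between the F0 strains, a value that depends on the pseudocount because Cast/EiJ had no unique hit, and 1.22 between the alleles, so the effects differed by 6.26. This difference was not tested. Gypc did the same at a low level, from -1.08 in F0 (3, 4 and 3 against 1, 1 and 1 unique hits) to 1.37 between the alleles, a difference of 2.46 that was not tested, and its symbol has 2 rows in the tables.

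Alas2 and Xk, both on the X chromosome, had opposite allelic differences in the crosses in every library. For Alas2 the log2 difference, Cast minus B6 allele, was 4.06 in F1 B6xCast and -3.82 in F1 CastxB6, 7.88 apart, and for Xk it was 7.91 and -7.73, 15.64 apart. These differences were not tested, and males carry only the mother's X chromosome.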

How the results depend on the processing

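Without a filter limma called 3200 genes between the F0 strains instead of 5019, a test over 37991 genes instead of 15043, and with each F0 library left out in turn it called from 3326 (without replicate 2 of C57BL/6J) to 4426. Between the F1 crosses it called 46, and with 1 library left out from 18 to 37, with 24 without replicate 2 and 18 without replicate 3 of F1 B6xCast, and 22, 28 and 27 without replicates 1, 2 and 3 of F1 CastxB6. Same-numbered replicates had correlations of their deviations from -0.0756 to 0.297 in F0 and from -0.123 to -0.0527 in F1. The 0.297, for replicate 1 of both F0 strains, was the highest in F0, where differently numbered replicates reached at most 0.245. Whether same-numbered replicates share a batch was not tested. With a replicate block the calls were 6511 in F0, 25 between the crosses and 5839 (of 6200) between the alleles. The counts under the other alternatives stayed within 1.5 times. TMM factors moved the median log2 difference of all genes between the F0 strains from 0.03 to -0.05. Of 122 alternative values for the members, 119 stayed within 1 SD of the replicates. The other 3 were the F0 difference of Hbb-b2, which was -8.32 with a pseudocount of 0.1, -3.74 from unique hits and -18.83 from the deposited log expression, a size set by how a count of 0 is treated. 15 values had another sign than the main one, all for differences between crosses or alleles. The largest were 0.42 for Alas2 between the crosses, from the deposited log expression, and 0.34 for Hba-a1 between the alleles, without replicate 2 of F1 B6xCast. Depth limits Hbb-b2 and Alas2, with 0 to 20 unique hits per F0 library.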
